A study of Mus musculus with 18 samples.

Results

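Thyroids of Glis3KO2 mice and wild-type (WT) mice were compared after 6 days on a low-iodine diet. The comparison holds 8 of the 18 arrays of the series, 4 Glis3KO2 (KO2) and 4 WT, and its members are the arrays whose titles name the genotype and the low-iodine diet. All 8 came from C57BL/6 mice aged 1 month, weaned at 3 weeks. The other 10 arrays are 5 WT and 5 KO2 thyroids of the same age and strain on a normal diet, used here for the estimate of each gene's spread and for the test of genotype by diet. The labels name the line only as Glis3KO2. The deleted part of Glis3, the sex of the mice and their litters are not given in the sources used here, and genotype on the low-iodine arrays is given by their titles alone. Each array is a whole thyroid, so all of its cell types contribute to every value.

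Glis3 is a zinc finger transcription factor of the Krüppel-like family that is needed for thyroid hormone production. Follicular cells take up iodide from blood through the sodium/iodide symporter, pass it to the follicle lumen and bind it to thyroglobulin. When iodine is short, the pituitary releases more thyrotropin (TSH), which acts on follicular cells through its receptor and cyclic AMP and makes the gland take up more iodide and grow. The comparison asks which thyroid genes differ between Glis3KO2 and WT mice while the gland is under that demand.

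Single-colour Agilent arrays were used. A level here is log2 of a probe's processed signal minus the 75th percentile of its array, and a difference is KO2 minus WT on that scale, with the standard error (SE) of the limma fit. Values are listed in the order of replicates 1 to 4. On the 8 arrays 76.7% to 90.6% of spots were well above background. The WT array of replicate 2 stood apart, with 90.6% of spots well above background and a median signal of 191.5, against 61.6 to 85.5 on the other 7. Correlation over all genes was 0.944 to 0.981 among WT arrays, 0.965 to 0.979 among KO2 arrays and 0.918 to 0.958 between the genotypes. The arrays lay on 2 slides, each with 2 WT and 2 KO2. The labelled tissue held by its markers: Tg, which encodes thyroglobulin, read 6.41 to 7.39 on all 8.

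The genotypes were not matched in sex-linked signal. The mean level of the Y-linked genes Ddx3y, Eif2s3y, Kdm5d and Uty was 0.73 and 0.25 on WT replicates 1 and 2 and 0.90, 0.82 and 0.43 on KO2 replicates 1 to 3, but −6.33 and −5.80 on WT replicates 3 and 4 and −5.09 on KO2 replicate 4. Slide 2 set WT replicates 3 and 4 against KO2 replicates 2 and 3, so there the sex-linked signal and the genotype cannot be told apart. On slide 1, WT replicates 1 and 2 stood against KO2 replicates 1 and 4. With the Y-linked level as a covariate, a setting added after the data were seen, 2483 genes passed the threshold, and 2242 of them were among the 2679 calls reported next.

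At an adjusted p under 0.05, 2679 of 17928 genes differed between the genotypes (14.9%), 1396 higher in KO2 (7.79%) and 1283 lower (7.16%). The large changes were mostly reductions. A difference of at least 2-fold was reached by 433 of the higher and 886 of the lower genes, one of at least 4-fold by 57 and 291, and one of at least 8-fold by 6 and 102. The arrays of the genotypes did not overlap for 2288 of the calls; over all 17928 genes, 1911 were higher without overlap (10.7%) and 1624 lower (9.06%). The direction was shared by both slides in 2678 of the 2679 calls, against 10618 of all genes. The exception was Angptl7, at −3.87 on slide 1 and 0.14 on slide 2. The calls rest on these same arrays, so a shared direction is largely built in and is not a separate check. The median difference of all genes was −0.02, and the share of lower genes among the calls, 47.9%, depended on the scaling: it was 86.5% without scaling, where the median of all genes was −0.285, 45.0% with median scaling, where it was 0.127, and 57.6% with the 8 arrays fitted alone. Without KO2 replicate 4, 922 genes were higher. Counts of list members are read against the shares of all genes, 7.79% higher and 7.16% lower, and a share near them is not a result about a list. Over the alternatives, counts of short lists moved, and with quantile normalization 13 of the 42 lists had over 1.5 times as many members lower and 11 over 1.5 times as many higher. Fold changes of dim probes depend on the background correction: among the 119 called genes picked by the naming rule, normexp made the difference smaller by over 1.5-fold in 46 and larger in 0, and quantile normalization smaller in 1 and larger in 25.

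**Figure D1:**
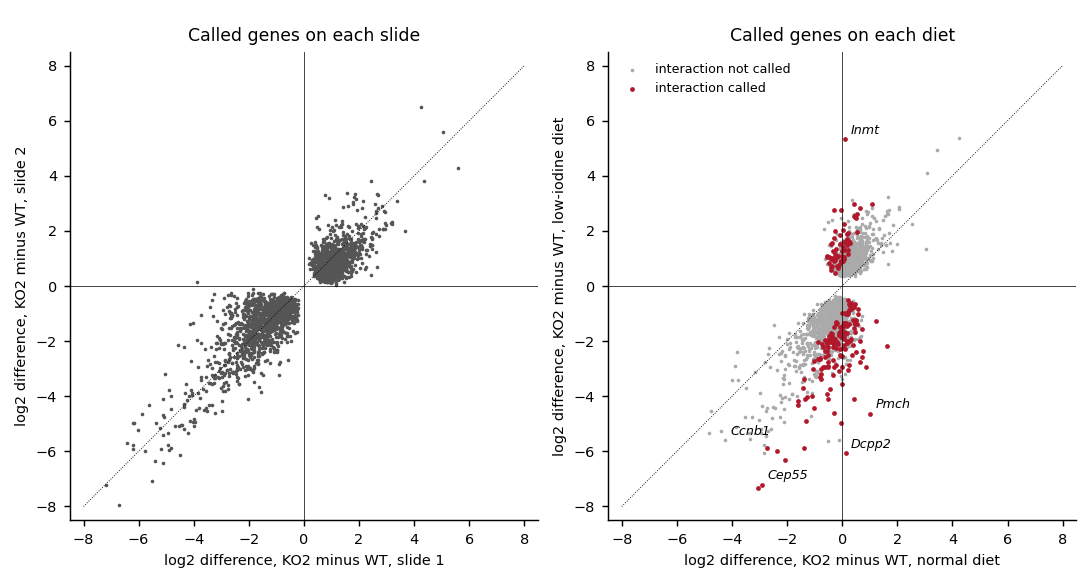
The left panel plots the log2 difference (KO2 minus WT) of each of the 2679 called genes on slide 1 (x axis) against slide 2 (y axis), and the right panel plots the same genes on the normal diet (x axis) against the low-iodine diet (y axis), with genes called in the genotype by diet interaction in red. Dotted lines mark equal differences. All called genes but Angptl7 lie in the quadrants of equal sign in the left panel, and the red points lie farther from 0 on the y axis than on the x axis. Selection of the genes by these same differences favours both patterns.

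Glis3 was read by 1 probe. Its level was −1.60, −1.31, −1.32 and −0.74 in WT and −4.06, −1.49, −1.91 and −2.93 in KO2. KO2 replicate 2 lay within the range of the WT arrays, and the other 3 KO2 arrays lay below it. The difference of −1.36 ± 0.47 (SE) did not pass the threshold (adjusted p = 0.0620), though it did with slide as a block (0.0260), with normexp background correction (0.0335), with quantile normalization (0.0420), without scaling (0.0324), and without KO2 replicate 2 (0.0212) or KO2 replicate 3 (0.0452). Where the probe lies relative to the deleted part is not given in the sources used here, so its level checks nothing about the labels.

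Of the 9 iodide transport genes tested, 1 fell, 1 rose and 7 did not pass the threshold (median difference −0.43, against −0.02 for all genes, and 0.01 without WT replicate 2). Slc5a5, the sodium/iodide symporter of the basal membrane, was the one that fell. It read 4.15, 3.67, 3.99 and 4.25 in WT and −0.46, 0.16, 0.98 and −0.29 in KO2. Every KO2 array lay below every WT array, KO2 replicate 3 being the highest of its group. The reduction was 15.1-fold (−3.92 ± 0.44 SE, adjusted p = 2.70e-05), with −4.28 on slide 1 and −3.55 on slide 2. Slc26a4, the gene for pendrin, an anion exchanger facing the follicle lumen, read −1.50, −1.25, −1.44 and −1.64 in WT and −1.97, −2.56, −2.79 and −2.07 in KO2. These groups did not overlap either, but the difference of −0.89 ± 0.39 (SE) missed the threshold (adjusted p = 0.145), and it passed with the 8 arrays fitted alone (0.0410).

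Slc5a8, an apical monocarboxylate transporter once proposed to carry iodide, was the member that rose. Its level was 0.95, 0.89, 0.85 and 0.80 in WT and 1.88, 1.95, 1.56 and 1.57 in KO2, a 1.82-fold increase (adjusted p = 0.0307) that was lost when any 1 WT array or KO2 replicate 1 or 2 was left out (adjusted p 0.0505 to 0.0754), with normexp background correction (0.0547), without scaling (0.242) or with the Y-linked covariate (0.0578). The chloride channel gene Ano1 (−0.50 ± 0.17 SE, adjusted p = 0.0651, 0.0195 with quantile normalization and 0.0416 without WT replicate 2) and the anion transporter gene Slc26a7 (0.21 ± 0.17 SE, adjusted p = 0.480) did not pass.

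Thyroid hormone synthesis and release genes had 2 of 11 tested members lower and 0 higher, with a median of −0.65; the count was 0 lower without WT replicate 4 or with median scaling, 1 without WT replicate 1 or 3 or KO2 replicate 1, 2 or 4, 4 with the 8 arrays alone, 3 with trend and robust moderation and 5 with quantile normalization. Of the 2, Iyd, the deiodinase that recovers iodide from iodotyrosines, read 3.53, 3.21, 3.42 and 3.59 in WT and 2.43, 2.73, 3.05 and 2.66 in KO2. The reduction was 1.65-fold (adjusted p = 0.0398), without overlap, but the call was lost when any 1 array but WT replicate 2 or KO2 replicate 3 was left out (0.0672 to 0.114), with median scaling (0.304) and with the Y-linked covariate (0.0722).

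The deiodinase genes Dio1 and Dio2, whose products turn thyroxine into the active hormone, also had every KO2 array below every WT array without passing the threshold. Dio1 read 4.66, 4.33, 4.65 and 4.63 in WT and 3.99, 3.83, 4.01 and 3.86 in KO2 (−0.65 ± 0.23 SE, adjusted p = 0.0728, 0.0323 with the 8 arrays alone). Dio2 read 0.69, 0.12, 0.25 and −0.48 in WT and −2.94, −0.66, −3.02 and −2.67 in KO2, with KO2 replicate 2 well above the other 3 KO2 arrays (−2.47 ± 0.89 SE, adjusted p = 0.0746; 0.0409 without that array). Tg did not pass the threshold and its groups overlapped: it read 7.01, 6.41, 6.53 and 6.72 in WT and 7.01, 6.76, 6.72 and 7.39 in KO2 (0.30 ± 0.18 SE, adjusted p = 0.327).

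**Figure D2:**
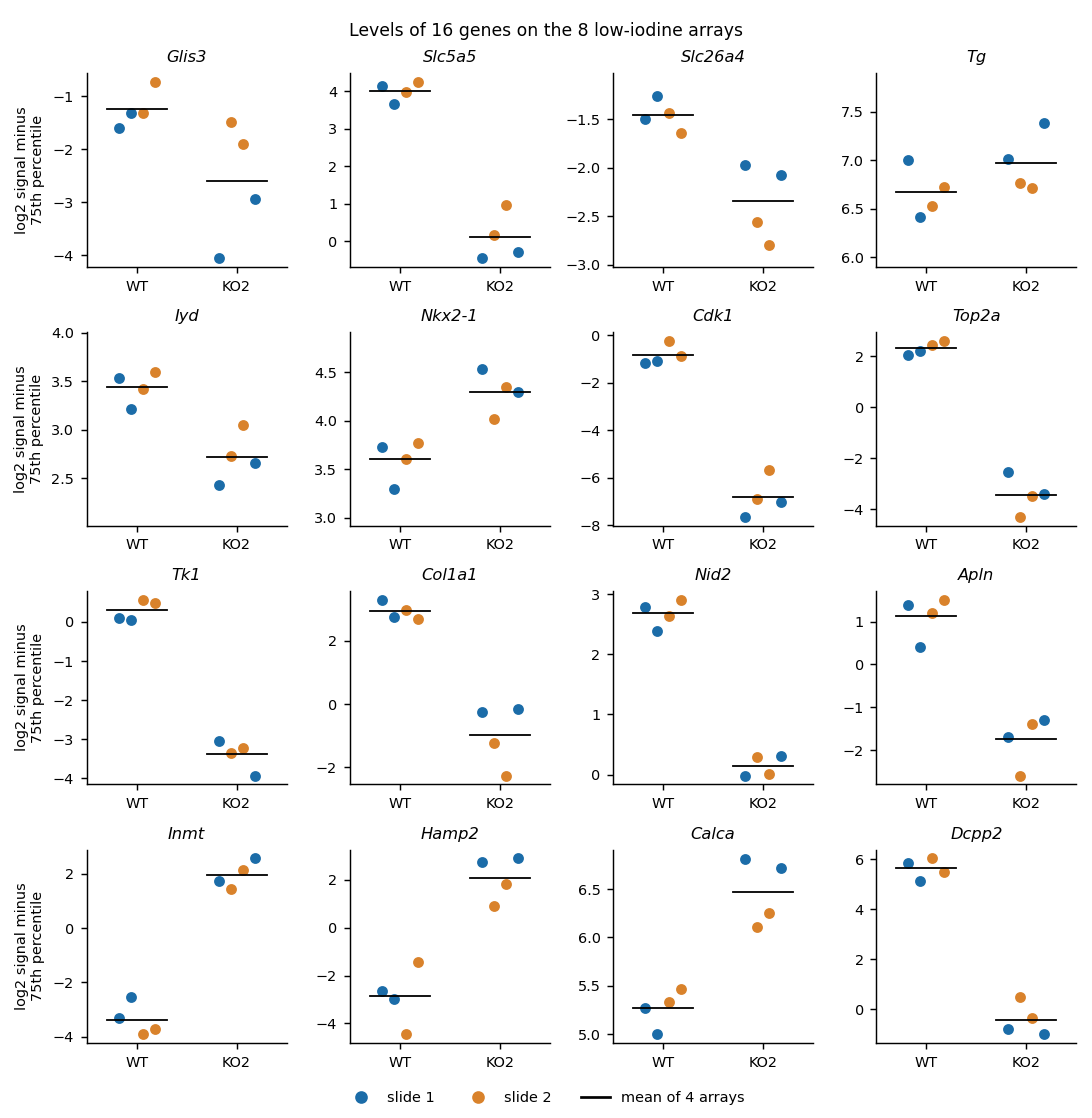
Each panel plots the level of 1 gene (y axis, log2 signal minus the array's 75th percentile, with its own scale in every panel) on the 4 WT and 4 KO2 low-iodine arrays (x axis); points are arrays coloured by slide and bars are means of 4. Groups are separate for Slc5a5, the cell division genes Cdk1, Top2a and Tk1, the matrix genes Col1a1 and Nid2, and Inmt, and they overlap for Glis3 and Tg.

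Transcription factors of the thyroid lineage had 3 of 13 members higher and 0 lower (median 0.02). Nkx2-1, which is required to form and maintain follicular cells, read 3.73, 3.30, 3.61 and 3.77 in WT and 4.54, 4.02, 4.35 and 4.30 in KO2, a 1.62-fold increase (adjusted p = 0.00550). The developmental factors Isl1 (2.15-fold, adjusted p = 0.000800) and Hoxb3 (2.23-fold, 0.00331) were the others, although the differences of the Hoxb3 probes ran from −0.16 to 1.16. Without scaling, the increases of Nkx2-1 (0.44, adjusted p = 0.233) and Hoxb3 (0.89, 0.0738) lost the call, as did Nkx2-1 with median scaling (0.0529) and Hoxb3 with the mean of its probes (0.50, 0.175). The core factors Pax8 (0.77, adjusted p = 0.0935), Foxe1 (−0.50, 0.355) and Hhex (−0.25, 0.562) did not pass.

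TSH and cyclic AMP signalling genes had 2 of 19 members lower (10.5%, near the 7.16% of all genes) and 0 higher (median −0.04). The TSH receptor gene Tshr differed by −0.04 (adjusted p = 0.958). Pde4b, a phosphodiesterase that breaks down cyclic AMP, fell 2.56-fold (adjusted p = 0.000280), from −0.57, 0.36, −0.11 and −0.17 in WT to −1.54, −1.43, −1.71 and −1.24 in KO2. Ppp1r1b, a phosphatase inhibitor regulated by protein kinase A, fell 2.85-fold (adjusted p = 0.000828). Neither gene's groups overlapped. Immediate early genes had 4 of 21 members higher and 1 lower (median 0.33). Jund rose 1.87-fold (adjusted p = 0.00542, 0.0861 without scaling) and Fosl2 1.71-fold (0.00992, 0.303 without scaling and 0.0518 with the mean of probes). Of the list, 2 members were higher when WT replicate 1, 2 or 4 or KO2 replicate 1 or 4 was left out, and 0 without scaling.

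Genes of mitosis showed the widest reduction. Of 58 members tested, 52 were lower in KO2 and 0 higher (89.7%, against 7.16% of all genes), the median difference was −3.37, and all 58 were below 0. In 54 the arrays of the genotypes did not overlap. The median was −3.39 on slide 1 and −3.67 on slide 2, and it ran from −4.02 to −2.20 over the alternative settings, with 51 to 55 members lower. The summed level of the list was 1.06 to 1.52 on the WT arrays and −2.23 to −1.88 on the KO2 arrays. In whole tissue, fewer dividing cells and less of these transcripts per cell cannot be told apart.

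Cdk1, the kinase that drives entry into mitosis, read −1.15, −1.10, −0.23 and −0.86 in WT and −7.65, −6.91, −5.69 and −7.01 in KO2. Its brightest probe was well above background on 0 of the KO2 arrays, and its probes disagreed (−5.98 and −0.49). Top2a, the topoisomerase of dividing cells, read 2.04, 2.22, 2.46 and 2.60 in WT and −2.55, −4.30, −3.48 and −3.40 in KO2, a 54.3-fold reduction on a probe well above background on 4 WT and 4 KO2 arrays. Ccnb1, the cyclin partner of Cdk1, read −1.04, −1.01, −0.39 and −1.14 in WT and −7.96, −6.04, −5.42 and −6.53 in KO2 (48.2-fold, adjusted p = 0.000410), and was well above background on 1 KO2 array. For all 3 genes every KO2 array was below every WT array. With normexp the difference was −2.10 for Cdk1, −4.38 for Top2a and −2.18 for Ccnb1.

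Cytokinesis and kinetochore genes followed the same pattern. Cep55, a midbody protein used in abscission, read 1.62, 1.36, 1.89 and 1.37 in WT and −5.26, −4.87, −6.33 and −6.12 in KO2, and its probe was seen well above background on 1 KO2 array. Ect2, which positions the contractile ring, read 2.72, 2.16, 2.87 and 2.52 in WT and −1.31, −1.39, −1.48 and −2.31 in KO2, an 18.2-fold reduction (−4.19 ± 0.38 SE, adjusted p = 5.25e-06). Nuf2, a kinetochore subunit, fell 36.6-fold (adjusted p = 5.25e-06) and the mitotic kinase gene Nek2 66.5-fold (6.17e-05). Melk, a kinase of dividing cells, was well above background on 0 of the KO2 arrays, which gives a bound of at least 52.7-fold lower in the main setting only. Over the alternative settings its difference ran from −7.03 to −3.13 (log2). Outside the list, Iqgap3, which scaffolds small GTPases, was at −6.30 (3.40e-05) on a probe well above background on 1 KO2 array. With normexp the differences were −3.92 for Cep55, −3.55 for Ect2, −3.07 for Nuf2, −3.62 for Nek2 and −2.72 for Iqgap3, and each passed the threshold. The 6 list members that did not pass were Mybl2 (−1.30), Kif2c (−1.28), Cdc25c (−1.22), Cdca5 (−1.19), Cdca2 (−0.50) and Espl1 (−0.07).

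**Figure D3:**
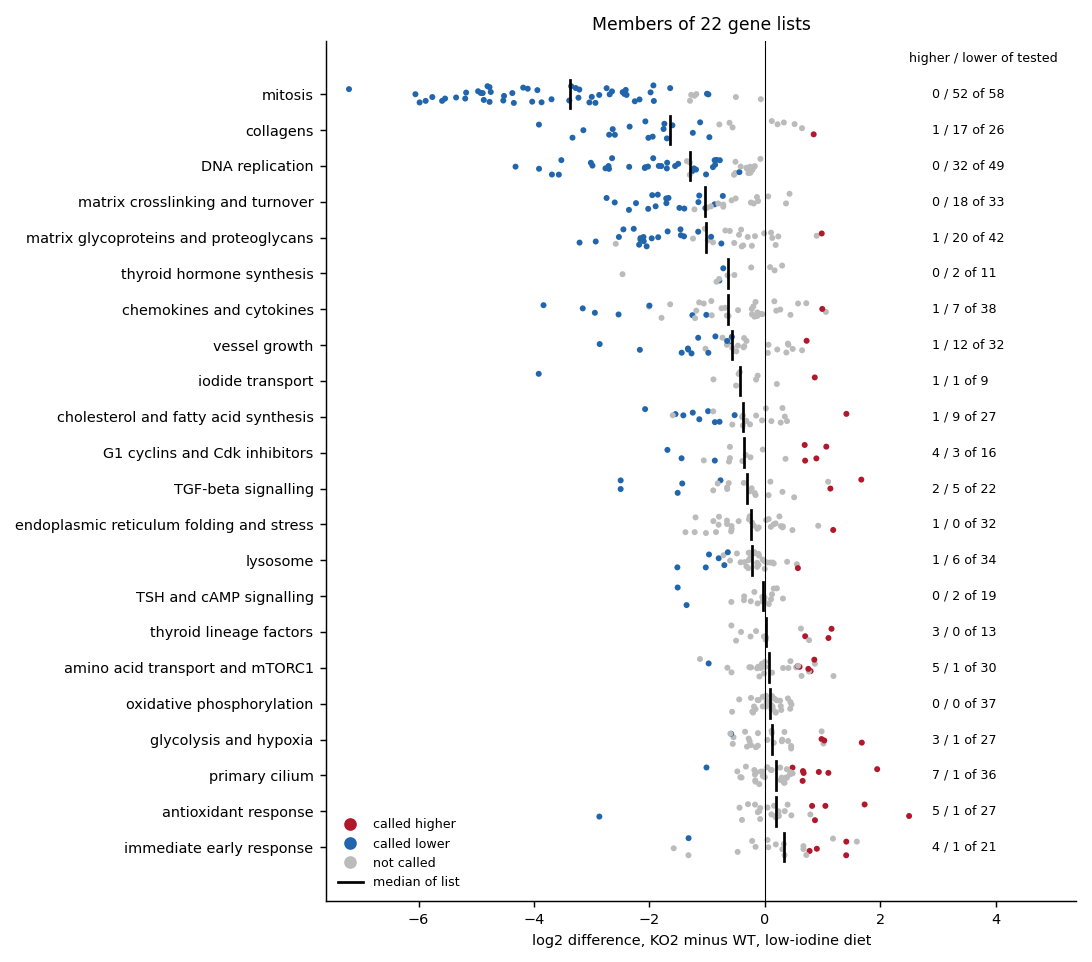
Each point is 1 gene of a list (rows), placed by its log2 difference between KO2 and WT on the low-iodine diet (x axis) and coloured by its call; black bars are list medians and the numbers at the right give members higher and lower out of those tested. Mitosis (52 of 58 lower), collagens (17 of 26) and DNA replication (32 of 49) lie to the left, while oxidative phosphorylation has 0 calls among 37.

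Promoters of cell cycle genes are known for short elements through which the DREAM complex, B-Myb, FoxM1 and NF-Y control them: the cell cycle homology region (CHR, searched as TTTGAA or TTCGAA) and the CCAAT box (CCAAT), while G1/S genes carry E2F elements (TTTCCCGC or TTTGGCGC). These letters were searched on both strands in RefSeq promoter windows of build GRCm38.p6, each 300 bases long with 250 bases before and 50 after the annotated start. The mitosis members matched 48 windows of 46 genes, and 79.2% of these windows held a CHR match, against 19.2% of all 32851 windows and 15.6% of the 17745 windows of tested genes. A CCAAT match was in 66.7%, against 37.4% of all windows, and both were in 60.4%, against 7.52%. A match is a run of letters, not a shown binding site. These shares describe the whole list, and whether matches differ between called and uncalled members was not tested. Espl1, which was not called, has a CHR match 27 and a CCAAT match 44 bases before the start. Nek2, called lower, has a CCAAT match at 26 bases and no CHR match in its upstream 250 bases.

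The upstream 250 bases of 5 genes follow, shown because the 3 mitosis genes among them carry both elements, Mcm5 an E2F element and Slc5a5 neither a CHR nor an E2F match; Mcm5 was picked after its values were seen. Capitals mark CHR, CCAAT and E2F letters on either strand, and the last base of each line is next to the annotated start. Cdk1 lies at chr10:69352913-69353162 (minus strand), Top2a at chr11:99024190-99024439 (minus), Ect2 at chr3:27153879-27154128 (minus, the first of 2 windows), Mcm5 at chr8:75109259-75109508 (plus) and Slc5a5 at chr8:70892758-70893007 (minus).
Cdk1: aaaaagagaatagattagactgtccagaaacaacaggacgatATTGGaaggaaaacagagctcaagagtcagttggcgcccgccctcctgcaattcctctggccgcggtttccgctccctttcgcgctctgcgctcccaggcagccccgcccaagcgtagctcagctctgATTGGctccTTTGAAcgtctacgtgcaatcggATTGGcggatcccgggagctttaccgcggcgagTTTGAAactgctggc
Top2a: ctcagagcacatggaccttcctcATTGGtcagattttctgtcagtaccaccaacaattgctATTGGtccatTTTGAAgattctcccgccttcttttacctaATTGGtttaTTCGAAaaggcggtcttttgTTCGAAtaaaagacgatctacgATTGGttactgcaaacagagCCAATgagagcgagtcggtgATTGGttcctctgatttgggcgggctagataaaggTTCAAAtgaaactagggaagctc
Ect2: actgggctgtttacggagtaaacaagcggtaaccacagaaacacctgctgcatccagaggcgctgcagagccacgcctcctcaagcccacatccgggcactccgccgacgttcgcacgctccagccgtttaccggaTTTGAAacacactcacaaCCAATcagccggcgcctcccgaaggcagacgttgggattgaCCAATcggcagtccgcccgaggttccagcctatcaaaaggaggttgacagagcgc
Mcm5: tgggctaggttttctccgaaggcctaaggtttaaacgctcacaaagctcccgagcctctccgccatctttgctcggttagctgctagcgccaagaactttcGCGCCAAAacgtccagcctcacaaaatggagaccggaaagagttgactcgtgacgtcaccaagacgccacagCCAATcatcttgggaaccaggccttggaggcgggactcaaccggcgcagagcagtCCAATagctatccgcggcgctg
Slc5a5: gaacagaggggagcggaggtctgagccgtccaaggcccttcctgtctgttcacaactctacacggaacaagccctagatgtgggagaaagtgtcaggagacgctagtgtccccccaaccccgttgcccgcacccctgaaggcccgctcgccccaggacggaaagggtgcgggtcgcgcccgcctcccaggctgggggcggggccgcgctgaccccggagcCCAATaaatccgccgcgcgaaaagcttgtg

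Within the printed bases, Cdk1 has CHR matches beginning 71 and 15 bases before the start and CCAAT matches at 208, 80 and 48. Top2a has 4 CHR matches, the nearest at 23 bases, and 6 CCAAT matches. Ect2 has a CHR match at 114 bases and CCAAT matches at 96 and 55. Slc5a5 has a single CCAAT match at 30 bases. The GLIS element (core letters TGGGGGGT) was found in 0 of the 48 mitosis windows and in 1.53% of all windows, and the Slc5a5 window held none. At so low a share, the lack of a match in these windows says nothing about these genes.

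**Figure D4:**
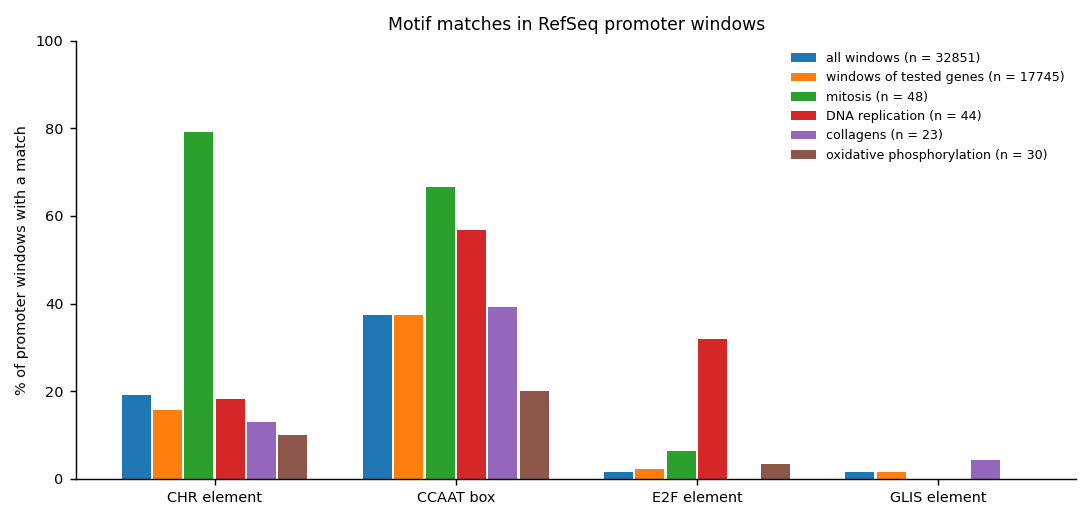
Bars give the percentage of RefSeq promoter windows (y axis) with at least 1 match to each element (x axis), for all windows, windows of tested genes and 4 gene lists. The mitosis windows stand at 79.2% for CHR against 19.2% of all windows, and the DNA replication windows at 31.8% for E2F against 1.56%.

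DNA replication genes had 32 of 49 members lower and 0 higher (median −1.30), and all 49 differences were below 0; 24 were lower with median scaling and 37 with quantile normalization. Tk1, a thymidine kinase of S phase, read 0.11, 0.05, 0.57 and 0.47 in WT and −3.04, −3.36, −3.21 and −3.93 in KO2, a 12.9-fold reduction (−3.69 ± 0.31 SE, adjusted p = 4.40e-06). The S-phase transcription factor genes E2f1 (−3.53, 2.12e-05) and E2f8 (−3.91, 4.85e-05) fell as well, but the probes of E2f1 ran from −3.53 to −1.68 and that of E2f8 was well above background on 1 KO2 array. With normexp the difference was −1.58 for E2f8 and −2.46 for Tk1. Replicative helicase subunits ranged from Mcm5 (−2.65, adjusted p = 0.000240) to Mcm6 (−0.23, 0.417). In 44 promoter windows of this list, an E2F match was in 31.8%, against 1.56% of all windows, and a CHR match in 18.2%.

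G1 cyclins and cyclin-dependent kinase (Cdk) inhibitors moved in both directions, with 4 of 16 members higher and 3 lower (median −0.36; 6 lower with quantile normalization). Cyclin E1, Ccne1, fell 3.22-fold (adjusted p = 0.00170), though its probes ran from −1.69 to −0.23 and their mean gave −0.96 (0.00606). The Cdk inhibitor gene Cdkn1c read −1.12, −1.02, −1.09 and −1.47 in WT and −0.24, −0.30, 0.05 and 0.06 in KO2, a 2.09-fold increase (0.00265). Cdkn1b, which encodes p27, rose 1.86-fold (0.00826), and its probes ran from 0.33 to 0.89. Rbl2, the p130 pocket protein found in resting cells, read 0.67, 0.50, 0.61 and 0.64 in WT and 1.32, 1.24, 1.32 and 1.31 in KO2 (1.61-fold, 0.00240). KO2 arrays were above WT arrays for all 3, and without scaling none of the 3 kept its call (adjusted p = 0.117 for Cdkn1c, 0.161 for Cdkn1b and 0.269 for Rbl2).

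Collagens had 17 of 26 members lower and 1 higher, with a median of −1.65 (−1.42 on slide 1 and −1.75 on slide 2). Col1a1, the main chain of fibrillar collagen, read 3.31, 2.75, 2.99 and 2.70 in WT and −0.24, −1.24, −2.26 and −0.15 in KO2. Every KO2 array was below the lowest WT array, and the reduction was 15.1-fold (adjusted p = 3.36e-05). Col4a1, of basement membranes, read 4.05, 3.99, 4.15 and 4.61 in WT and 2.17, 2.14, 1.99 and 2.23 in KO2 (4.20-fold, 3.07e-05), and Col8a1 (6.21-fold, 2.06e-05) and Col5a3 (4.05-fold, 3.48e-05) also fell; Col8a1 was at −1.71 with normexp, and the probes of Col5a3 ran from −2.02 to −0.77. Of other basement membrane chains, Col4a3 (0.64, adjusted p = 0.219) did not pass and Col4a4, the 1 member that rose and chosen after its values were seen, was at 0.85 (0.0441), and the list had 0 higher members when any 1 array but KO2 replicate 2 or 3 was left out.

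Matrix glycoproteins and proteoglycans had 20 of 42 members lower and 1 higher (median −1.01). Nid2, a nidogen that links laminin to collagen IV, read 2.79, 2.39, 2.64 and 2.91 in WT and −0.02, 0.30, 0.02 and 0.31 in KO2, a 5.77-fold reduction (adjusted p = 1.53e-06). Every KO2 array was below every WT array. Fbln2, a fibulin, fell 4.30-fold (8.97e-06), Bgn, the proteoglycan biglycan, 4.46-fold (2.61e-05), and Sparc, a collagen-binding protein, 3.89-fold (1.23e-05), with probes of Sparc from −1.96 to −0.48. The one member that rose was Dcn, the proteoglycan decorin (0.99, adjusted p = 0.00762; chosen after its values were seen), which is also in the fibroblast marker list.

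Genes of matrix crosslinking and turnover had 18 of 33 members lower and 0 higher (median −1.03). Plau, the urokinase plasminogen activator, read 0.66, 1.01, 0.68 and 0.86 in WT and −2.19, −1.85, −1.17 and −2.54 in KO2, and its receptor gene Plaur read −0.44, −0.24, −0.31 and 0.35 in WT and −2.47, −2.12, −2.09 and −2.90 in KO2. These are reductions of 6.69-fold (adjusted p = 3.48e-05) and 4.70-fold (4.97e-05), and the probes of Plaur ran from −2.23 to −0.96; with normexp it was at −1.55. Pcolce, which aids collagen maturation, fell 3.87-fold (3.81e-05) and Adamts2, a procollagen protease, 3.26-fold (0.000231). In the TGF-beta list, 5 of 22 members were lower and 2 higher (median −0.31). The ligand genes Tgfb3 (2.85-fold, 0.000115) and Inhba (5.65-fold, 0.000283) and the latency protein gene Ltbp4 (2.70-fold, 0.000507) fell, and the co-receptor gene Tgfbr3 rose 2.20-fold (0.00520). With normexp Inhba was at −1.16.

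Fibroblast markers, measured beside these matrix genes, had 5 of 14 members lower and 2 higher (median −0.53). Col14a1 fell 6.49-fold (adjusted p = 0.000368) while Gsn rose 1.66-fold (0.00370, 0.173 without scaling), and Pdgfra differed by 0.41 (0.337). The summed level of the list was 1.93 to 2.25 on WT arrays and 1.97 to 2.41 on KO2 arrays, against 2.17 to 2.56 and 0.47 to 0.87 for collagens. Bright members weigh most in such a sum, and Gsn, which rose, averaged 4.22 in WT and 4.95 in KO2. Of the 14 members, 7 were lower without overlap and 3 higher, so the sum does not measure the amount of fibroblasts.

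Vessel growth genes had 12 of 32 members lower and 1 higher (median −0.57). Their summed levels overlapped, at 2.35 to 2.72 in WT and 2.30 to 2.81 in KO2. Apln, the peptide apelin made by sprouting endothelium, read 1.38, 0.41, 1.20 and 1.51 in WT and −1.68, −2.59, −1.38 and −1.28 in KO2, with WT replicate 2 the lowest WT array and KO2 replicate 2 the lowest KO2 array. Its reduction was 7.27-fold (adjusted p = 2.51e-05), and its probes ran from −3.10 to −1.98. Tek, the angiopoietin receptor, fell 2.52-fold (0.000280), and Unc5b, a guidance receptor of endothelial tips, 4.49-fold (0.000344), or −1.03 (log2) with normexp. Vegfa (0.40, adjusted p = 0.345) and its receptor genes Kdr (−0.32, 0.493) and Flt1 (0.06, 0.909) did not pass. With median scaling 4 members were lower. The member that rose was Adm, the peptide adrenomedullin, named after its values were seen (0.72, 0.0485), and 0 members were higher without WT replicate 1, 3 or 4 or KO2 replicate 1, 2 or 4.

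Endothelial markers were lower in 6 of 15 and higher in 0 (median −0.49; 3 lower with median scaling). The co-receptor gene Eng read 1.10, 0.63, 0.95 and 1.03 in WT and −0.93, −0.55, −0.47 and −0.85 in KO2 (3.09-fold lower, adjusted p = 0.000118), and Cdh5, the cadherin of endothelial junctions, read 3.88, 3.51, 3.52 and 3.71 in WT and 2.30, 2.04, 1.98 and 2.41 in KO2 (2.78-fold, 0.000507). Their groups did not overlap. The summed endothelial level was 1.82 to 2.07 in WT and 1.17 to 1.47 in KO2, and that of pericytes and smooth muscle was 2.47 to 2.83 and 2.05 to 2.27 (3 of 12 lower, 0 higher, and 1 lower without WT replicate 1, 3 or 4). The part of these cell types in the vessel growth genes was not tested.

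Chemokines and cytokines had 7 of 38 members lower and 1 higher (median −0.64; 4 lower without KO2 replicate 2, and 0 to 2 higher with 1 array left out). Il1rn, the interleukin-1 receptor antagonist, read −2.53, −2.52, −2.17 and −2.19 in WT and −4.77, −7.66, −5.34 and −6.99 in KO2, a difference of −3.84 (adjusted p = 9.79e-05). Its probe was well above background on 1 KO2 array, and the difference was −3.04 with the mean of its probes and −1.02 with normexp (0.00288). Ccl4, a chemokine of macrophages and T cells, was at −2.53 (0.00190), or at −0.96 with normexp. Il6 was at −2.95 (0.000118), but the difference was −0.57 (log2) with normexp background correction (0.110), and its probe was well above background on 1 KO2 array. Macrophage markers had 1 of 15 lower and 1 higher (6.67% each way, near the shares of all genes; 6 lower with quantile normalization; median −0.69; 0 to 2 lower and 0 or 1 higher with 1 array left out), and their summed level was 0.51 to 0.92 in WT and −0.11 to 1.02 in KO2.

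Among metabolic groups, cholesterol and fatty acid synthesis had 9 of 27 members lower and 1 higher (median −0.38; 5 lower with median scaling). Srebf1, a regulator of lipid synthesis, was the member that rose, reading 1.54, 1.17, 1.61 and 1.69 in WT and 3.14, 2.88, 2.79 and 2.86 in KO2 (2.67-fold, 0.000132). Its KO2 arrays were all above its WT arrays.

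Antioxidant response genes had 5 of 27 members higher and 1 lower (median 0.20, −0.07 without scaling). Selenbp1, a selenium-binding protein, read 0.92, 0.53, 0.87 and 0.93 in WT and 3.63, 3.06, 2.86 and 3.71 in KO2, a 5.66-fold increase (adjusted p = 4.98e-05). Gpx3, a secreted glutathione peroxidase, read 2.61, 2.47, 3.04 and 2.80 in WT and 4.17, 4.49, 4.52 and 4.66 in KO2 (3.32-fold, 0.00334), and Gstm1, a glutathione transferase, rose 2.07-fold (0.00202). The member that fell was Sod3, the extracellular superoxide dismutase, from −0.78, −0.02, 0.30 and 0.12 in WT to −3.04, −3.02, −3.17 and −2.63 in KO2 (7.30-fold, 1.20e-05; −1.95 with normexp).

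Other organelle and growth lists had 0 to 7 calls in either direction. Oxidative phosphorylation had 0 of 37 members called (median 0.09). The primary cilium list, included because Glis3 is known to localise there, had 7 of 36 higher and 1 lower (median 0.19, −0.07 without scaling; 4 higher when any 1 array but WT replicate 3 or KO2 replicate 2 was left out, 3 with the 8 arrays alone). Lysosome genes had 6 of 34 lower and 1 higher (median −0.22; 3 lower without WT replicate 3 or 4 or KO2 replicate 4 or with the 8 arrays alone, 1 with median scaling, 10 with quantile normalization); Hexa, a lysosomal hexosaminidase, fell 2.86-fold (0.000914). Endoplasmic reticulum folding and stress genes had 1 of 32 higher and 0 lower (median −0.24), the one being the stress sensor Ern1 (2.27-fold, 0.000987). Of its members, 8 were lower without overlap, its summed level was 3.94 to 4.35 in WT and 3.22 to 3.93 in KO2, and 8 members were lower with quantile normalization, 3 with the 8 arrays alone, 3 with slide as a block and 2 without KO2 replicate 3. Amino acid transport and mTORC1 had 5 of 30 higher and 1 lower (median 0.07; 3 higher without WT replicate 2 or 3 or KO2 replicate 1, 0 without scaling, 2 with the 8 arrays alone, 9 with quantile normalization or with trend and robust moderation), and glycolysis and hypoxia 3 of 27 higher and 1 lower (median 0.12, −0.15 without scaling; 6 higher with quantile normalization, slide as a block or trend and robust moderation).

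Among the largest increases was Inmt, an enzyme that methylates indole amines. It read −3.31, −2.54, −3.91 and −3.70 in WT and 1.71, 1.44, 2.14 and 2.56 in KO2, a 40.2-fold increase (5.33 ± 0.40 SE, adjusted p = 1.53e-06), and the groups did not overlap. The hepcidin genes, which encode the hormone of iron balance, were both higher: Hamp2 read −2.63, −2.96, −4.46 and −1.42 in WT and 2.72, 0.89, 1.81 and 2.89 in KO2 (30.8-fold, 0.00138), and Hamp rose 6.97-fold (0.0191; 0.0512 without WT replicate 3 and 0.0550 without KO2 replicate 1). Probes for these near-identical genes may read both. S100a5, a calcium-binding protein, read 0.20, −1.02, −0.12 and −0.84 in WT and 4.28, 3.52, 3.17 and 3.60 in KO2 (17.0-fold, 0.00224), and Apod, a lipid-binding lipocalin, read 0.31, 0.67, 0.42 and −0.01 in WT and 3.63, 3.29, 3.33 and 4.09 in KO2 (9.43-fold, 3.48e-05). With normexp the differences were 3.80 for Inmt, 3.60 for Hamp2 and 1.60 for Hamp.

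Some increases began near background. Mc4r, the melanocortin 4 receptor, read −4.00, −4.62, −4.73 and −3.81 in WT and −1.77, −1.22, −0.68 and −1.56 in KO2 (7.90-fold, adjusted p = 2.61e-05; 1.37 with normexp) and was well above background on 3 WT and 4 KO2 arrays. Slpi, a secreted protease inhibitor, rose 7.93-fold (0.000199), or 0.87 (log2) with normexp (0.0548), and Prr36 7.07-fold (9.79e-05), or 0.69 (log2) with normexp (0.126). The cytochrome P450 gene Cyp2b9 rose 41.2-fold (0.0162), but its probe was well above background on 1 WT and 4 KO2 arrays, and the call was lost with normexp (0.239) and with the mean of probes (0.0606). Stfa2, a stefin of a multicopy family, rose 8.70-fold (0.00588), or 1.07 (log2) with normexp (0.0116) and 3.79 without WT replicate 2.

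Among the largest reductions were Dcpp genes and Adamts8. The Dcpp genes encode secreted proteins first described in demilune and parotid cells of salivary glands. Dcpp2 read 5.86, 5.14, 6.04 and 5.50 in WT and −0.81, 0.50, −0.36 and −1.02 in KO2, and all KO2 arrays were below all WT arrays (−6.06 ± 0.93 SE, adjusted p = 0.000373). Dcpp1 (49.4-fold) and Dcpp3 (47.7-fold) gave like values, and a probe of these near-identical genes can read more than 1 of them. The other 6 tested salivary-type markers, among them Smgc (0.20, adjusted p = 0.814), Bpifa2 (0.22, 0.769) and Amy1 (0.85, 0.129), did not pass. Adamts8, a secreted metalloprotease, read 1.42, 1.21, 1.42 and 1.27 in WT and −4.98, −4.51, −4.77 and −3.94 in KO2 (58.9-fold, 4.81e-06), and was at −3.57 with normexp.

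C-cell markers were higher in 5 of 13 and lower in 0 (median 0.57; 3 higher without scaling). Calca, which encodes calcitonin, read 5.27, 5.00, 5.34 and 5.46 in WT and 6.81, 6.10, 6.25 and 6.72 in KO2 (2.30-fold, adjusted p = 0.000577), and Pcsk2, a hormone-processing protease, read 2.91, 3.02, 2.98 and 3.33 in WT and 5.01, 4.02, 4.27 and 4.78 in KO2 (2.75-fold, 0.000310). KO2 arrays were above WT arrays for both genes, and KO2 replicates 1 and 4, both on slide 1, were the highest. The probes of Calca ran from 1.20 to 2.68. The summed C-cell level was 2.99 to 3.33 in WT and 3.71 to 4.25 in KO2. Follicular markers had 2 of 12 higher and 2 lower (median −0.04; 1 or 2 in each direction with 1 array left out), and their summed levels overlapped (4.28 to 4.75 and 4.47 to 4.87). Cdh16, a cadherin of follicular cells, fell 4.04-fold (0.00456).

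Among tissues that border the thyroid, parathyroid and skeletal muscle levels differed from mouse to mouse. The summed cartilage and adipocyte levels did not overlap between the genotypes. The summed parathyroid level was 3.98, 3.57, 3.92 and 3.50 in WT and 0.57, 3.81, 4.03 and 4.40 in KO2. Skeletal muscle was at 0.40, 1.95, 3.72 and −1.03 in WT and −0.98, 2.94, −0.81 and −1.20 in KO2, with 0 of 13 markers called. Cartilage markers were lower in 4 of 10 (2 with the 8 arrays alone; summed level 0.88 to 1.21 in WT and −0.19 to 0.37 in KO2), led by Col2a1 (7.26-fold, adjusted p = 0.000280) and Cnmd (10.3-fold, 0.00124), and airway markers in 2 of 10, Dnah5 (9.53-fold, 0.000521) and Foxj1 (4.19-fold, 0.00264). The probes ran from −2.86 to −0.65 for Col2a1 and from −3.30 to −0.96 for Dnah5, and normexp gave −1.23 for Cnmd and −1.07 for Foxj1. The summed airway levels overlapped, at 1.27 to 1.90 in WT and 1.25 to 1.44 in KO2. The median of the airway list was −1.89 on slide 1 and 0.10 on slide 2. No marker of T cells, B cells, thymic epithelium, adipocytes, brown fat, squamous epithelium or nerve passed the threshold in the 18-array fit. Adipocyte markers were above 0 in 7 of 9, with 4 higher without overlap, a median of 0.69 and summed levels of 2.79 to 3.48 in WT and 3.76 to 4.41 in KO2; 2 were higher with the 8 arrays alone. The part of these tissues in the results above was not tested.

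**Figure D5:**
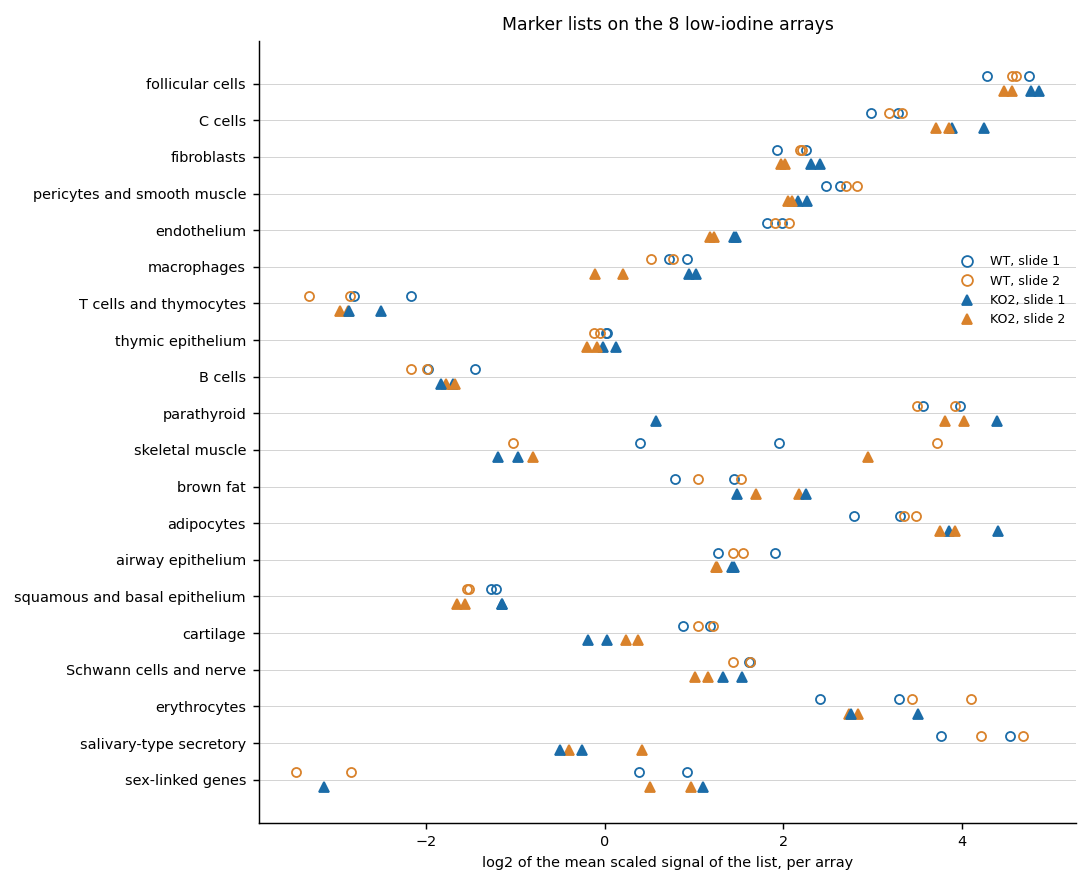
Rows are marker lists and points are the 8 low-iodine arrays, placed by log2 of the mean scaled signal of the list (x axis), with open circles for WT, filled triangles for KO2 and colour for the slide. WT and KO2 are separate for C cells, adipocytes, endothelium, pericytes and smooth muscle, cartilage and the salivary-type list. In the salivary-type list only the 3 Dcpp genes of 9 members tested were called, and 4 members were above 0 (median −0.25). Sex-linked genes are low on WT replicates 3 and 4 and KO2 replicate 4.

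The genotype effect was tested against that on the normal diet by the interaction of genotype and diet, which 221 genes passed (1.23%), 66 with a higher difference on low iodine (0.368%) and 155 with a lower one (0.865%). Of these, 211 were also called on the low-iodine diet, and in all 211 the difference was larger there than on the normal diet. Passing both tests favours this form, because the interaction contains the low-iodine difference, so it is not a separate result. The normal diet alone gave 253 calls (1.41%), and 160 genes were called on both diets in the same direction. The diets were on separate slides and scanners, and all 10 normal-diet arrays had a low Y-linked level (−8.69 to −6.28), so a difference between the diets in slide, scanner or sex-linked signal cannot be told apart from diet. With the Y-linked covariate 220 genes passed. Without WT replicate 1, 3 or 4 or KO2 replicate 4 the count was 140, 120, 136 or 133.

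Slc5a5 was among them: KO2 differed from WT by −0.55 on the normal diet (adjusted p = 0.620) and by −3.92 on low iodine, an interaction of −3.37 (adjusted p = 0.0102). Inmt differed by 0.10 on the normal diet and had an interaction of 5.23 (0.000123). Pmch, the precursor of melanin-concentrating hormone, read 0.63, −0.03, 0.81 and 0.61 in WT and −5.03, −3.39, −4.08 and −4.02 in KO2 on low iodine, a 24.9-fold reduction (−2.85 with normexp), with a normal-diet difference of 1.00 and an interaction of −5.64 (0.000123). Nid2 (−0.01 on the normal diet, interaction −2.52, 0.000123) and Ttk, a spindle checkpoint kinase (−0.05, −4.92, 0.00839), showed the same form. Of the mitosis list, 12 of 58 members passed the interaction, all lower, and 35 were lower on the normal diet (median −2.17). Cdk1 differed by −2.35 there (adjusted p = 0.0290; interaction −3.63, 0.0271), and Ccnb1 by −4.26 with an interaction of −1.33 that did not pass (0.645).

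Matrix genes passed the interaction in 8 of 42 glycoproteins, 4 of 26 collagens and 4 of 33 turnover genes, all with a lower difference on low iodine. On the higher side, Pdyn, the precursor of dynorphin, differed by −0.30 on the normal diet and read −3.29, −2.26, −3.25 and −1.95 in WT and 0.38, −0.23, −0.31 and 0.45 in KO2 on low iodine (interaction 3.06, 0.00621). Upk1a, a uroplakin, had an interaction of 2.81 (0.00921), although the low-iodine differences of its probes ran from −0.31 to 2.76. For the melanopsin gene Opn4 (3.30, 0.0233) and the kallikrein gene Klk1b3 (2.88, 0.0409), the differences were −0.04 and 0.64 on low iodine and −3.34 and −2.24 on the normal diet.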

How the data were processed

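RNA from whole thyroids was hybridised to single-colour Agilent arrays. The deposited values are spot intensities from Agilent Feature Extraction 12, per the file headers and the submitters' processing notes, background-subtracted and detrended within each array but not scaled between arrays. Control and outlier spots were left out, log2 of the processed intensity was centred on each array's 75th percentile, and a gene was tested where its probe was flagged well above background by the scanner software on 4 or more of 18 arrays, using the brightest probe per gene. Probes were named through RefSeq accessions (GRCm38.p6): 28215 of 41174 matched 1 gene. A limma 3.58.1 model (R 4.3.3) of 4 group means over all 18 arrays gave the contrasts, with Benjamini-Hochberg adjustment over 17928 genes and a threshold of 0.05; adjusted p-values are from it unless another setting is named beside them, and those are from the limma fit under that setting. A gene measured in only one group was given a bound against the lowest signals well above background. A list's summed level is log2 of its mean scaled signal.

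Named genes were Glis3, the iodide transport and hormone synthesis lists, the 10 largest non-overlapping changes of each sign, up to 4 calls of smallest p per pathway list and 3 per marker list, and the 6 largest interactions of each sign. Some of these genes are not reported here. The comparison and the lists were chosen with earlier results of these data known. Same-numbered arrays were checked for pairing: their deviations correlated at 0.13, 0.11, 0.03 and 0.09, so the numbers were not taken as pairs. Alternatives covered blocks, background correction, scaling, filters, probe choice, moderation and each array left out; 2 were added after the data were seen. Normexp used the median spot signal, since the files used here hold no mean signal. The number of arrays limits the precision.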

Additional observations from a re-analysis of the deposited data

Results flagged for a closer look

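In 16 of 278 groups of 4 arrays, 1 array was set apart from the other 3 by most of the group's range. Chance marks about 1 group in 20, so the count is near that of chance. The gap itself can be small, as for Rbl2. Of the 16 arrays, 7 were WT replicate 2, the array with the most spots above background. The arrays and their levels were Dio1 on WT replicate 2 (4.33), Dio2 on KO2 replicate 2 (−0.66), Slco4a1 on WT replicate 1 (−2.11), Cyp2b9 on WT replicate 2 (−3.98), Prr36 on KO2 replicate 2 (−3.24) and Nek2 on WT replicate 2 (0.68). Others were Ccnb1 on WT replicate 3 (−0.39), Sparc on KO2 replicate 1 (2.47), E2f8 on WT replicate 2 (−1.65), Ect2 on KO2 replicate 4 (−2.31), Selenbp1 on WT replicate 2 (0.53) and Ndrg1 on WT replicate 2 (1.22). The rest were Isl1 on KO2 replicate 1 (2.07), Rbl2 on KO2 replicate 2 (1.24), Insr on WT replicate 2 (−1.23) and Klk1b4 on WT replicate 4 (−4.03). 

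The genotype difference of 39 genes named here was unlike on the 2 diets by the interaction test of the limma fit. As the low-iodine minus the normal-diet difference (log2), it was lower on low iodine in these genes. Cell division, transport and matrix members included Slc5a5 (−3.37), Cep55 (−4.31), Iqgap3 (−4.23), Dcpp2 (−6.18), Cdk1 (−3.63), Adamts8 (−4.48) and Nid2 (−2.52). Further values were those of Fbln2 (−1.95), Sparc (−1.33), Bgn (−1.85), Tk1 (−2.28), Melk (−3.13) and Ect2 (−2.57). Also lower were Col8a1 (−1.84), Col4a1 (−1.75), Col5a3 (−1.45), Apln (−2.65), Tek (−1.41), Plau (−2.23) and Plaur (−2.27). Lower too were Il6 (−3.79), Inhba (−2.41), Eng (−1.59), Cdh5 (−1.51), Pde4b (−1.49), Pmch (−5.64) and Ttk (−4.92). Last came Adam12 (−4.55) and Tafa3 (−4.31). It was higher on low iodine in Inmt (5.23), Slpi (2.55), Mc4r (1.90), Prr36 (2.19), Selenbp1 (2.03), Opn4 (3.30), Klk1b4 (3.07), Pdyn (3.06), Klk1b3 (2.88) and Upk1a (2.81). Diet, slide, scanner and sex-linked signal cannot be told apart in this test. The probes used for Adam12 and Tafa3 were well above background on 2 KO2 low-iodine arrays each. The low-iodine differences of the Tafa3 probes ran from −4.61 to −0.81. That of Adam12 came as near to 0 as −1.74 over the alternatives, and 1 alternative lost its low-iodine call.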

How the results depend on the processing

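Of 119 called genes named by the rule, 68 kept their call and all 119 their direction in all 20 alternatives and in both added after seeing the data. Not every setting that lost a call is named beside its gene. The count of 2679 calls (1396 higher, 1283 lower) fell to 1676 (711 higher) with the 8 arrays alone, to 1635 (900 and 735) with median scaling, and to 1662 (748 higher) with the 8 arrays less WT replicate 2, 1 of those added. Without scaling 255 were higher. The replicate block gave 884 calls (295 higher and 589 lower; 66.6% lower), 20 lower in the DNA replication list, and no call for Stfa2 (adjusted p = 0.0622) or Cnmd (0.103). Leaving out each array gave 1988 to 2569 calls and 922 to 1356 higher. The interaction count of 221 was 712 with quantile normalization, 85 with median scaling, 131 without scaling, 351 with trend and robust moderation and 120 to 227 with each array left out. Some list medians changed sign: glycolysis and hypoxia was −0.0465 with quantile normalization, −0.15 without scaling and −0.12 with the mean of probes; without scaling the antioxidant list was −0.0671 and the primary cilium list −0.0703; iodide transport was 0.0086 without WT replicate 2, from 18 or from 8 arrays, and −0.45 to 0.0086 with each array left out. The cause was not tested. With 4 arrays a group, small differences and probes near background are poorly resolved.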
